A study of Mus musculus with 1086 samples.

Results

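The New Zealand Obese strain (NZO/HILtJ) is an inbred mouse that becomes obese on its own, and its males are prone to diabetes. It is 1 of the 8 founder strains of the Diversity Outbred stock. Liver mRNA of the founders was sequenced in 128 males, 16 for each strain, within a series of 1086 sequencing records. All 16 columns of the founder table that carry the NZO name were used. They came from 8 males on a high fat diet and 8 males on chow, and each mouse gave 1 library.

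All 16 NZO mice were inbred males with no transgene. Per the labels they started on their diet at 4 weeks of age and were killed at 20 weeks, against 26 weeks in the other 7 strains, because many NZO mice died on the diet rich in fat and sucrose. The mice were thus those alive at 20 weeks, and strain and age cannot be told apart wherever NZO is set against the other strains. The labels describe the diets in more than 1 way. One passage gives a control diet with 17% of its energy from fat against a diet with 45% of its energy from fat and 34% sucrose by weight, and another gives 6% against 22% fat by weight. Which of these the NZO mice ate is not settled here, and the groups are called chow and high fat. Livers were snap frozen, and every lane from 1 to 8 held 1 NZO library of each diet. As the labels do not say how the mice were caged or bred into groups, the p-values measure the spread between these 16 mice only.

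The liver takes up fatty acids that reach it from food and from adipose tissue, and it burns them in mitochondria and peroxisomes, turns them into ketone bodies, stores them as triglyceride in lipid droplets or exports them in lipoproteins. The nuclear receptor PPARα senses fatty acids and switches on oxidation genes, while the SREBP factors switch on the synthesis of fatty acids and of cholesterol. Cholesterol entering the cell holds SREBP2 back and so lowers its target genes. Many liver genes also differ between males and females, because growth hormone is released in pulses in males and almost steadily in females.

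Levels are given in count equivalents, which are the deposited normalised signal times 1 constant, so that a value is close to the number of reads in a library of typical depth. For each gene the lowest, median and highest of the 8 mice on a diet are given in that order. Changes are high fat minus chow on the scale of log2(count equivalents + 1), with the SE of a limma fit to the 16 libraries, and adjusted p is Benjamini-Hochberg over all 11685 genes tested, with a threshold of 0.05. The libraries held 6176223 to 11401548 reads, as estimated from the deposited values.

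Of the 11685 genes tested, 1732 (14.8%) passed the threshold, 1081 of them higher with high fat (9.25%) and 651 lower (5.57%). The change was over 2-fold and called as higher in 1.75% and as lower in 0.745% of the genes tested, and the 2 diets did not overlap in 1.85%. The median change over all genes tested was -0.00496. Scaling by the library total gave 82.2% of calls as higher, against 62.4% here. The list counts below are to be read beside the 9.25% and 5.57% of all genes called as higher and lower.

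High fat mice fell into 2 series of animal numbers, which bear on every result below. 4 high fat mice were numbered 9367 to 9462, within the range of 7 of the 8 chow mice (9382 to 9522), and the other 4 were numbered 11125 to 11170. The remaining chow mouse was number 10563. The labels give no batch, and what the numbers stand for was not tested. On the first principal component, which held 30.1% of the variance, the high fat mice numbered 11125 to 11170 lay at 25.5 to 48.5, the other high fat mice at 2.12 to 15.9 and the chow mice at -55.1 to 3.86. Within the high fat group, 1245 of 11781 genes (10.6%) differed between the series, 664 higher and 581 lower in the mice numbered 11125 to 11170. With only the animals numbered 9367 to 9522, 4 high fat against 7 chow, 84 of 11910 genes (0.705%) passed, and 82 of these passed in the same direction with all 16 mice. That count rose when 1 chow mouse, number 9522 (chow replicate 2), was left out: with only the animals numbered 9367 to 9507, 290 genes passed. This mouse was picked after the data were seen, and no other mouse was left out of that subset in turn. With only the high fat mice numbered 11125 to 11170 against all chow mice, 2220 genes passed. A term for the number series in the fit left 909. Of the named genes described below, it ended the calls of Saa3, Lcn2, Apoe, Apoa1, Gys2, Pck1, Grb14, Slc2a2, Prodh, Col1a2, Cyp2e1, Colec11 and Lepr, at adjusted p of 0.0510 to 0.180. List members given below with their change only are left out of that tally. Some of them also lost their call with this term, among them Cyp2b10, Cyp3a11 and Por. The main counts below are therefore given for all mice, for the animals numbered 9367 to 9522 alone and, where it moves the count, without the mouse numbered 9522. Where such a count is small, the number at an unadjusted p under 0.05 is added. Of all genes tested, 17.2% were higher and 14.7% lower at that threshold with all mice, and 9.9% higher and 7.41% lower in the animals numbered 9367 to 9522. With a term for the number series 13.6% were higher and 11.8% lower. For the difference from the other 7 strains, 13.7% were higher and 12.3% lower.

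**Figure D1:**
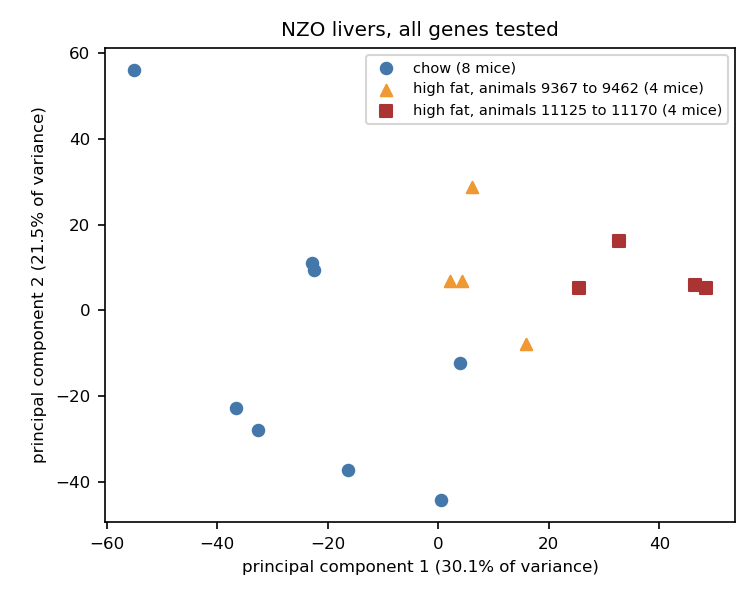
First and second principal components of log2(count equivalents + 1) over the genes tested in the 16 NZO livers, in arbitrary units, with 1 point for each mouse. All 4 high fat mice numbered 11125 to 11170 lie above 25 on the first component, the other 4 high fat mice between 2.12 and 15.9, and 1 chow mouse (replicate 2) stands apart at the upper left.

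Fatty acid oxidation genes were higher with high fat. Of the 25 tested genes of fatty acid oxidation and ketogenesis, 21 rose and 0 fell, with a median change of 0.75, and the diets did not overlap in 9. In 1 of the 25 the chow median was below 10 count equivalents, so that gene entered the test through its high fat level. With only the animals numbered 9367 to 9522, 4 of the 25 passed and the median change was 0.69, and 16 passed when mouse 9522 was left out as well. In the animals numbered 9367 to 9522, 21 were higher at an unadjusted p under 0.05. The list's mean per mouse was 1.09 to 1.43 in the high fat mice numbered 9367 to 9462 and 1.00 to 1.8 in those numbered 11125 to 11170, measured from the chow mean, while the chow mice spanned -0.88 to 0.88. Both high fat series thus lay above every chow mouse.

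The largest changes in the list were in genes of microsomal ω-oxidation. Cyp4a14, a fatty acid ω-hydroxylase and a classic target of PPARα, stood at 4.38, 65.3 and 4530.2 count equivalents in chow and at 889, 5064 and 18182 with high fat. The lowest high fat mouse was below the highest chow mouse, so the groups overlapped, although all 8 high fat mice were above the chow median. The change was 5.43 ± 1.09 (SE, n = 8 and 8, limma adjusted p = 0.00445). Leaving out chow replicate 2 raised it to 6.22 and leaving out chow replicate 8 lowered it to 4.83. Its neighbour Cyp4a10, which has the same activity, went from a median of 301 to 8025, a change of 4.40 ± 0.96 (adjusted p = 0.00695), or 5.07 without chow replicate 2. These genes are close copies, and how reads were shared between them cannot be seen in the table.

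Vnn1, a pantetheinase that releases the vitamin B5 part of coenzyme A and is a known PPARα target, had the smallest p of the list. Its levels were 68.1, 139.2 and 304 in chow and 746, 892 and 1218 with high fat. The groups were far apart and both high fat series were alike, at 787 to 1072 and 746 to 1218. It rose by 2.70 ± 0.26 (adjusted p = 3.89e-05), and by 2.56 in the animals numbered 9367 to 9522 alone (adjusted p = 0.0194). Bdh1, which makes the ketone body β-hydroxybutyrate, went from 1096, 1449.6 and 1786 to 2257, 2667 and 3101. No high fat mouse reached down to a chow mouse, and the change was 0.89 ± 0.10 (adjusted p = 8.35e-05).

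The acyl-CoA enzymes of mitochondria and peroxisomes moved the same way. Acot2, a mitochondrial acyl-CoA thioesterase, stood at 3.88, 12.8 and 36.9 in chow and at 58.2, 114.9 and 185.1 with high fat. Its groups did not overlap, and it rose by 2.84 ± 0.41 (adjusted p = 0.000525), with close copies in Acot1 and Acot3. Acaa1b, the thiolase that closes each round of peroxisomal β-oxidation, went from 639, 1713 and 4966 to 5652, 9219.8 and 12089, again with no overlap, and rose by 2.49 ± 0.39 (adjusted p = 0.000981). Smaller changes that passed were found in Cpt1a, which admits long chain fatty acids to mitochondria (0.75), Acadm, the medium chain dehydrogenase (0.78), and Ehhadh, a peroxisomal bifunctional enzyme (1.59). The members that did not pass included Ppara itself (0.65, adjusted p = 0.0908), Pdk4 (0.56, 0.251) and Fgf21 (1.26, 0.232).

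**Figure D2:**
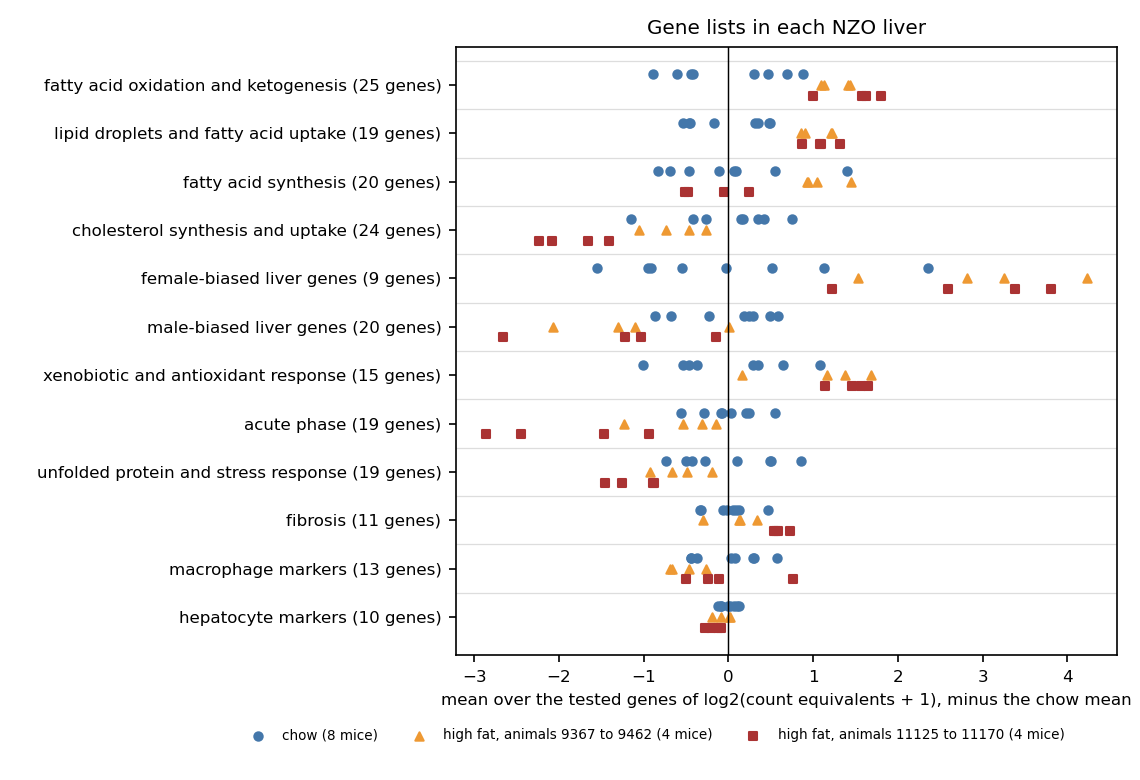
Mean over the tested genes of each list of log2(count equivalents + 1), minus the mean of the chow mice, with 1 point for each of the 16 NZO mice, split by diet and by series of animal numbers. Fatty acid oxidation and lipid droplet genes separate high fat from chow mice in both series, while cholesterol synthesis and fatty acid synthesis genes separate the 2 high fat series from each other.

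Lipid droplet and fatty acid uptake genes rose as well. Of 19 tested genes, 10 rose and 0 fell, the median change was 0.59, and 5 had no overlap between diets. In 2 of the 19, Mogat1 and Cidec, the chow median was below 10 count equivalents, so these entered the test through their high fat level. With the animals numbered 9367 to 9522 alone, 2 passed and the median change was 0.87, or 6 passed without mouse 9522. In the animals numbered 9367 to 9522, 11 were higher at an unadjusted p under 0.05. Mogat1, which adds a fatty acid to monoacylglycerol, was close to absent in most chow livers at 0.884, 2.27 and 22.6 and stood at 39.7, 62.4 and 105.7 with high fat. The groups did not overlap, and the change was 3.72 ± 0.50 (adjusted p = 0.000349). Cidec, a droplet protein that lets small droplets merge into large ones, went from 3.75, 6.66 and 40.4 to 49.2, 69.3 and 151.9. It rose by 3.03 ± 0.38 (adjusted p = 0.000284), with no overlap, and by 3.19 in the animals numbered 9367 to 9522 (adjusted p = 0.0245).

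Both FIT proteins, which sit in the endoplasmic reticulum and help triglyceride bud into droplets, were higher in every high fat mouse than in any chow mouse. Fitm1 went from 22.9995, 49.3 and 112.2 to 152.3, 196.7 and 269 and changed by 1.90 ± 0.29 (adjusted p = 0.000764). Fitm2 went from 259.6, 353 and 476 to 494, 683 and 838 and changed by 0.93 ± 0.13 (adjusted p = 0.000405). Other members that rose were the fatty acid transporter Cd36 (1.5), the lipogenic nuclear receptor Pparg (1.89), the lipase inhibitor G0s2 (2.29) and the droplet coat protein Plin4 (1.94). Plin2, the commonest droplet coat protein of liver, changed by 0.59 and did not pass (adjusted p = 0.168).

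Fatty acid synthesis genes did not move as 1 group. Of 20 tested, 3 rose and 0 fell, against 9.25% and 5.57% of all genes, with a median change of 0.51. The list's mean per mouse was 0.93 to 1.44 in the high fat mice numbered 9367 to 9462 and -0.51 to 0.24 in those numbered 11125 to 11170, with chow at -0.84 to 1.40, so the 2 high fat series did not overlap. Without chow replicate 7, 6 rose. With only the animals numbered 9367 to 9522, 1 gene rose and 0 fell (3 rose without mouse 9522), the median change was 1.02 and 13 genes were higher at an unadjusted p under 0.05. With only the high fat mice numbered 11125 to 11170 against all chow, 1 rose and 2 fell.

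The 3 genes that rose were Fads2 and Elovl5, which desaturate and elongate polyunsaturated fatty acids, and Srebf1, which encodes the transcription factor of the pathway. Fads2 went from 787, 1286 and 2595 to 2486, 3104 and 4974, and the groups overlapped only slightly. Its change was 1.36 ± 0.22 (adjusted p = 0.00115), with high fat mice at 2939 to 4974 in the lower and 2486 to 3145 in the higher number series. Elovl5 changed by 1.22 ± 0.32 (adjusted p = 0.019). It was at 8002 to 11611 in the high fat mice numbered 9367 to 9462 and at 3898 to 5122 in the others, against 1241 to 5783 in chow. Srebf1 went from 193.3, 553 and 1463 to 1009.9, 1290.0 and 1600.2 and changed by 1.19 ± 0.29 (adjusted p = 0.0124). Fasn, the fatty acid synthase, changed by -0.56 (adjusted p = 0.483), Acly, which supplies acetyl-CoA, by 0.19 (0.797) and the stearoyl-CoA desaturase Scd1 by 1.18 (0.322), and none of these passed. Fads3, a relative of Fads2 outside the list, rose by 1.78 ± 0.36 (adjusted p = 0.00445).

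Among 21 lipoprotein genes 3 rose and 1 fell, with a median change of 0.28, and 2 rose in the animals numbered 9367 to 9522 alone. Of all genes 9.25% were called as higher and 5.57% as lower. In the animals numbered 9367 to 9522, 6 of the 21 were higher and 2 lower at an unadjusted p under 0.05. Without chow replicate 2 or high fat replicate 4, 5 rose, and without chow replicate 7, 6 rose. Apoa4, an apolipoprotein of chylomicrons and of liver lipoproteins, stood at 1751, 2768 and 10387 in chow and 12714, 17231 and 27823 with high fat, with no overlap, and rose by 2.28 ± 0.34 (adjusted p = 0.000611). Apoc2, the cofactor of lipoprotein lipase, went from 778, 888 and 1320.3 to 1441, 2023 and 2169 and rose by 0.99 ± 0.12 (adjusted p = 0.000284), also with no overlap. Apoe rose by 0.52 ± 0.13 (adjusted p = 0.0161), but not with a term for the number series (0.0515) or for the lane (0.0518). Apoa1, the main protein of high density lipoprotein, fell, with a change of -0.64 ± 0.19 (adjusted p = 0.0313). That call was lost when any 1 of 8 mice was left out, chow replicates 1, 5, 6 and 8 and high fat replicates 1, 5, 6 and 8, at adjusted p of 0.0517 to 0.0660.

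Cholesterol synthesis genes were lower with high fat. Of 24 tested genes of cholesterol synthesis and uptake, 14 fell and 0 rose, all 24 had a negative change, and the median was -1.06. The 2 high fat series differed: the mean per mouse was -1.05 to -0.26 in the mice numbered 9367 to 9462 and -2.24 to -1.41 in those numbered 11125 to 11170, against -1.15 to 0.75 in chow. With the animals numbered 9367 to 9522 alone 1 gene fell (Tm7sf2) and the median change was -0.61, and without mouse 9522 8 fell. In the animals numbered 9367 to 9522, 10 were lower at an unadjusted p under 0.05. With the high fat mice numbered 11125 to 11170 and all chow, 17 fell. Hmgcs1, also on the list, was not analysed here.

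RefSeq promoters of GRCm38.p6 were found for 16 of the 24 genes. The 250 bases before the start of Cyp51, which removes a methyl group from lanosterol, and of Msmo1, which oxidises the next methyl groups, are shown because both genes fell and because of the NF-Y box in them. Read 5′ to 3′ on the gene's strand, capitals mark the NF-Y box CCAAT or its reverse complement ATTGG, and overlapping matches were not merged. Cyp51 lies on the minus strand at chr5:4104698-4104947 and Msmo1 on the minus strand at chr8:64733579-64733828.
Cyp51: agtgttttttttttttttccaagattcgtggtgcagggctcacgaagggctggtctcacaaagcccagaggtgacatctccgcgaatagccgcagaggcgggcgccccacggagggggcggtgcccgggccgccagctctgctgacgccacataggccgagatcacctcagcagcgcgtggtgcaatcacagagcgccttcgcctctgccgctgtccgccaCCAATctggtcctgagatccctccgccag
Msmo1: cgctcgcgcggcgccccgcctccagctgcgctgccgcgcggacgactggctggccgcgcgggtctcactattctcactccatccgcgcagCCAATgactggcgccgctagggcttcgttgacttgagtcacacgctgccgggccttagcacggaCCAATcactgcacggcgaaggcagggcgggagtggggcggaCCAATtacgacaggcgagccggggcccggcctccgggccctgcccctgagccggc
Cyp51 has 1 such box, whose first base lies 29 bases before the start, and Msmo1 has 3, at 160, 96 and 55 bases. CCAAT on either strand was present in 15 of the 16 promoters, and in all 10 of those whose gene fell, against 41.1% of 27025 genes with a promoter in the table. The sterol response element TCACNCCAC was found in 0 of the 16 promoters (1.44% of genes hold it) and the E-box CACGTG in 4 of 16 (8.09%). A match shows only that these letters are present in 300 bases around the start. Only the spelling TCACNCCAC was sought, so a promoter without a match may still hold a sterol response element of another spelling.

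Sqle, squalene epoxidase, which makes the first oxygenated sterol precursor, changed most in this list. It stood at 200.6, 1029 and 1511 in chow and at 9.52, 64.1 and 208.04 with high fat. The highest high fat mouse just overlapped the lowest chow mouse, and the high fat series were apart at 71.7 to 208.04 and 9.52 to 56.5. The change was -3.69 ± 0.60 (adjusted p = 0.00137).

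Cyp51 went from 602, 1072 and 1841 to 69.6, 210.4 and 677 and changed by -2.24 ± 0.42 (adjusted p = 0.00336). Msmo1 went from 356, 991 and 2493 to 88.5, 197.6 and 559 and changed by -2.12 ± 0.39 (adjusted p = 0.00324). Both overlapped between diets, through the high fat mice numbered 9367 to 9462. Tm7sf2, a sterol C14 reductase, was the 1 member with no overlap, at 361, 503 and 596 in chow and 128.2, 190.8 and 296 with high fat. It fell in both the full comparison, at -1.26 ± 0.17 (adjusted p = 0.000354), and the animals numbered 9367 to 9522 alone, at -0.84 (adjusted p = 0.038). Not every sterol gene passed: Insig1, which holds SREBP in the endoplasmic reticulum, changed by -1.18 (adjusted p = 0.0897).

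On the export side, of 16 genes of bile acids and sterol export 6 rose and 2 fell, with a median change of 0.23. 3 rose without chow replicate 1 or 6 or high fat replicate 6, and 1 fell without any 1 of chow replicates 1 and 3 to 8 or high fat replicates 1, 5, 6 and 8. Abcg8, a subunit of the pump that moves sterols into bile, stood at 221.2, 368 and 435 in chow and 483, 722 and 1297 with high fat, with no overlap, and rose by 1.12 ± 0.20 (adjusted p = 0.00256). Its partner Abcg5 rose by 1.01 ± 0.19 (adjusted p = 0.00341) and Abcb4, which moves phosphatidylcholine into bile, by 1.13 ± 0.22 (adjusted p = 0.00407). Each of the 3 was higher in the high fat mice numbered 11125 to 11170 than in the others by median, and of the 16 genes 0 passed by limma with the animals numbered 9367 to 9522 alone, where 5 were higher and 2 lower at an unadjusted p under 0.05, and 1 rose without mouse 9522. Baat, which joins bile acids to taurine and glycine, fell, at -0.47 ± 0.11 (adjusted p = 0.0084). Cyp7a1, which starts bile acid synthesis, changed by 1.14 and did not pass (adjusted p = 0.392).

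**Figure D3:**
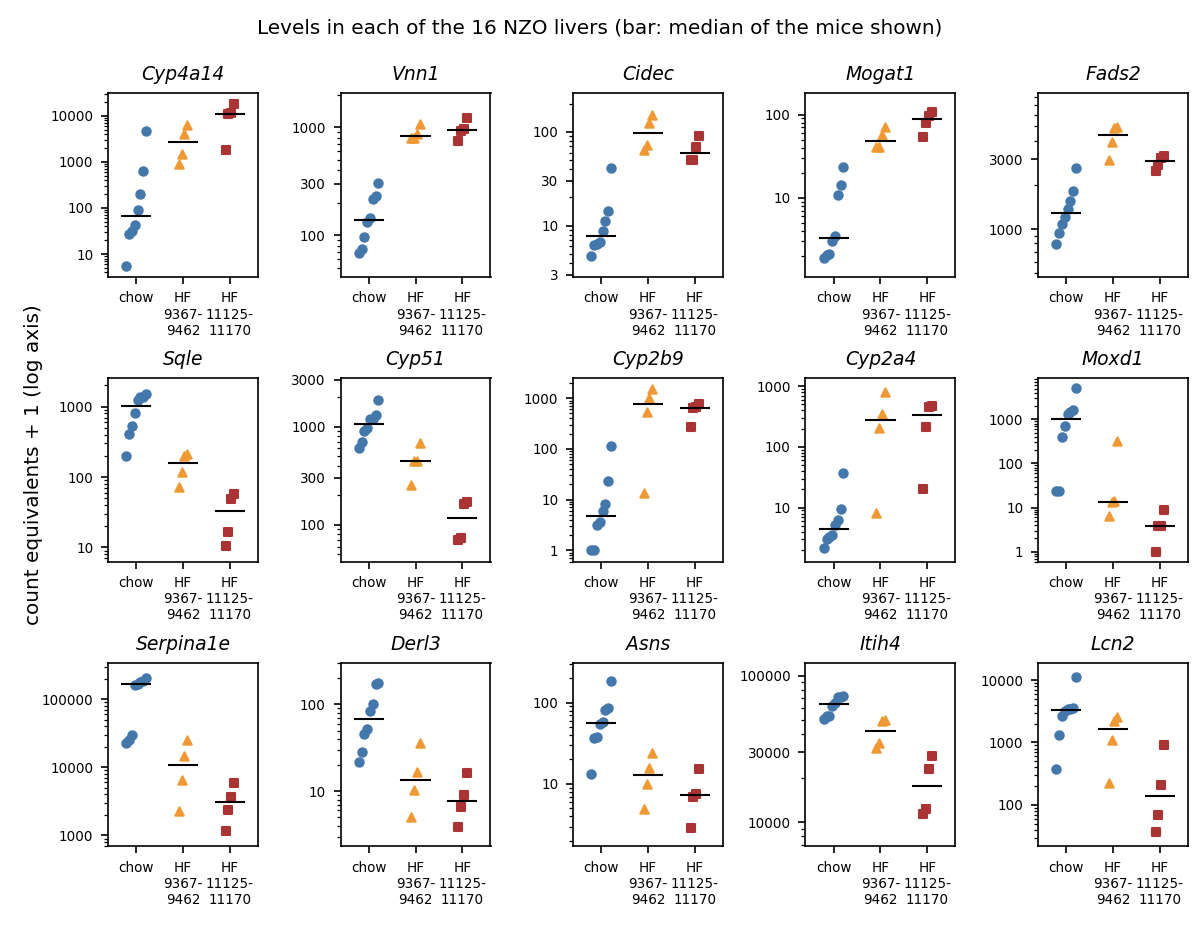
Levels of 15 named genes in each of the 16 NZO livers, as count equivalents + 1 on a log axis, with 1 point for each mouse and a bar at the median of the mice shown. Vnn1, Cidec and Mogat1 are higher in all 8 high fat mice than in any chow mouse, whereas Sqle, Cyp51, Itih4 and Lcn2 are lowest by median in the high fat mice numbered 11125 to 11170.

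Some genes that normally differ between male and female liver changed in these males. Of 9 tested female-biased genes 6 rose and 0 fell, with a median change of 2.53. In the animals numbered 9367 to 9522 alone the median was 3.10 and 0 passed by limma, with 7 higher at an unadjusted p under 0.05, and 2 passed without mouse 9522. Another 10 of the 19 genes on that list were too low to test, and in 4 of the 9 the chow median was below 10 count equivalents, so these entered the test through their high fat level and the 9 do not stand for the whole list. Of 20 male-biased genes 4 fell and 0 rose, with a median change of -0.82, or 1 that fell and a median of -1.03 in the animals numbered 9367 to 9522 (3 that fell without mouse 9522). In the animals numbered 9367 to 9522, 8 were lower at an unadjusted p under 0.05. The other 16 male-biased genes did not pass. In 1 of the 20, Moxd1, the high fat median was below 10 count equivalents, so it entered the test through its chow level.

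Cyp2b9, a cytochrome P450 of female liver, was near 0 in most chow mice and had the largest increase of all named genes. It stood at 0, 3.83 and 112.2 in chow and at 12.5, 640.1 and 1486 with high fat, where replicate 4 held the lowest value. The change was 6.14 ± 1.00 (adjusted p = 0.00135), or 6.84 without that mouse and 6.75 without chow replicate 7. Cyp2a4, a steroid hydroxylase of female liver, went from 1.17, 3.42 and 35.9 to 7.05, 277 and 805 and changed by 4.85 ± 0.86 (adjusted p = 0.00252), or 5.46 without high fat replicate 4. Both genes have close copies (Cyp2b13 and Cyp2a5), which the table may not fully separate.

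A1bg, a plasma protein that is abundant in female mouse liver, stood at 0, 2.07 and 15.1 in chow and 1.90, 51.6 and 411 with high fat, and rose by 3.69 ± 0.88 (adjusted p = 0.0118). The groups overlapped, and against chow neither high fat series passed by itself, at an adjusted p of 0.0599 with the animals numbered 9367 to 9522 and 0.0637 with those numbered 11125 to 11170. Acot3, a peroxisomal thioesterase, went from 0, 6.63 and 56.9 to 61.3, 81.7 and 177.9 without overlap and rose by 3.86 ± 0.60 (adjusted p = 0.000911). Fmo2, a flavin monooxygenase, rose by 0.89 ± 0.21 (adjusted p = 0.0107).

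Moxd1, a copper monooxygenase related to dopamine β-hydroxylase, had the largest decrease of all named genes. Its levels were 22.6, 1003 and 5144 in chow and 0, 6.48 and 317 with high fat, with overlap. The change was -5.70 ± 1.19 (adjusted p = 0.00559), and leaving out high fat replicate 4, chow replicate 2 or chow replicate 7 took it to -6.43, -6.31 or -6.32. Serpina1e, a male-biased copy of the α1-antitrypsin gene, went from 22993, 163898 and 202018 to 1154, 4827 and 25456. The chow mice themselves were split: replicates 2, 3 and 7 stood at 22993, 29377 and 24805, and the other 5 at 158584 or more. The change was -4.13 ± 0.66 (adjusted p = 0.00124), and reads may be shared with its near-identical copies.

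Susd4, which encodes a complement regulator, went from 64.1, 188.02 and 278 to 6.94, 34.6 and 87.5 and changed by -2.30 ± 0.43 (adjusted p = 0.00318). It was the only one of the 4 to pass in the animals numbered 9367 to 9522 alone, at -2.12 (adjusted p = 0.0457). Gstp1, the most abundant glutathione transferase of male mouse liver, went from 4038, 9540.5 and 14093 to 2285, 3388 and 6562 and changed by -1.24 ± 0.27 (adjusted p = 0.00632). The large male-biased families did not pass, with Mup20, a urinary protein, at -0.99 (adjusted p = 0.0641), Hsd3b5, a steroid enzyme, at -1.04 (0.257) and Elovl3, a fatty acid elongase, at -0.51 (0.319).

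The means of the sex-biased lists differed from mouse to mouse within each diet. The lowest male-biased means were those of high fat replicates 1 and 7, which belong to different number series, and high fat replicates 4 and 5 were the closest to chow. Within chow, replicate 7 had the highest female-biased mean (2.36) and the lowest male-biased mean (-0.87). Chow replicates 2, 3 and 7, the mice with low Serpina1e, were the 3 chow mice with a male-biased mean below 0, a list of which Serpina1e is 1 of 20 genes.

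Genes of xenobiotic and antioxidant response rose in 7 of 15 cases and fell in 0, with a median change of 0.76. In 2 of the 15 the chow median was below 10 count equivalents, so these entered the test through their high fat level. Among the animals numbered 9367 to 9522 alone the median was 0.80 and 0 passed by limma, with 6 higher at an unadjusted p under 0.05, and 1 passed without mouse 9522. Cyp2b9, described above, belongs to this list too. Ephx1, microsomal epoxide hydrolase, went from 373, 1009.7 and 2892 to 2058, 4248 and 5154 and changed by 1.95 ± 0.40 (adjusted p = 0.00528). Nqo1, a quinone reductase under NRF2, went from 10.2, 14.99 and 30.2 to 23.2, 37.3 and 51.9 and changed by 1.19 ± 0.21 (adjusted p = 0.00252). The drug-metabolising P450 genes Cyp2b10 (3.06) and Cyp3a11 (2.27), their electron donor Por (1.14) and the antioxidant sulfiredoxin Srxn1 (0.76) rose, while Hmox1, heme oxygenase, was at -0.23 (adjusted p = 0.648) and Cyp1a2 at -0.12 (0.775). With a term for the number series 4 of the 15 rose, namely Cyp2b9, Ephx1, Nqo1 and Srxn1. Cyp2b10, Cyp3a11 and Por did not pass with that term.

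Acute phase genes were lower with high fat. These encode plasma proteins that the liver makes more of during inflammation. Of 19 tested, 14 fell and 0 rose, and the median change was -1.22. With the animals numbered 9367 to 9522 alone the median was -0.59 and 0 of them passed by limma, with 11 lower at an unadjusted p under 0.05. With the high fat mice numbered 11125 to 11170 and all chow 16 fell. The mean per mouse was -1.24 to -0.15 in the high fat mice numbered 9367 to 9462 and -2.86 to -0.94 in those numbered 11125 to 11170. The chow mice spanned -0.56 to 0.55, so the high fat mice numbered 9367 to 9462 overlapped them. With a term for the number series 5 of the 19 genes fell, and with only the animals numbered 9367 to 9507 0 passed.

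Itih4, an inter-α-trypsin inhibitor heavy chain, was the 1 member whose diets did not overlap, though by a narrow margin. It stood at 50331, 63584 and 72275 in chow and 11375, 30196 and 49866 with high fat. The change was -1.22 ± 0.28 (adjusted p = 0.00927), with high fat mice at 32156 to 49866 and 11375 to 28235 in the 2 series. Fgb, the fibrinogen β chain, went from 65207, 86715 and 103534 to 19022, 44786 and 67186 and changed by -1.07 ± 0.25 (adjusted p = 0.00959), and Fga and Fgg, the other fibrinogen chains, changed by -1.09 and -1.06. Hpx, the heme carrier hemopexin, changed by -0.96 ± 0.21 (adjusted p = 0.00718).

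The genes with the widest range were those of strong inflammation. Saa3, a serum amyloid A gene, stood at 204.5, 2174 and 10196 in chow and 28.5, 90.7 and 1159 with high fat, a change of -3.45 ± 0.89 (adjusted p = 0.0169), and other serum amyloid genes are close copies. Lcn2, which binds bacterial siderophores, went from 369, 3327 and 11188 to 35.2, 561 and 2550.2 and changed by -2.70 ± 0.86 (adjusted p = 0.043). That call did not hold without any 1 of chow replicates 1, 2, 3, 5, 6 and 8 or high fat replicates 4, 5, 6 and 8, at adjusted p of 0.0618 to 0.0878. Hamp, which encodes hepcidin, the hormone of iron balance, was at 0.90 and did not pass (adjusted p = 0.35). Of 17 interferon response genes 0 passed by limma, and 2 were lower at an unadjusted p under 0.05, against 14.7% of all genes.

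Unfolded protein and stress response genes were lower too. Of 19 tested, 11 fell and 0 rose, with a median change of -0.76. With the animals numbered 9367 to 9522 alone the median was -0.59 and 0 passed by limma, with 10 lower at an unadjusted p under 0.05. With the high fat mice numbered 11125 to 11170 and all chow 13 fell and 1 rose (Trib3). With a term for the number series 5 fell, and with only the animals numbered 9367 to 9507 0 passed. In 2 of the 19, Derl3 and Asns, the high fat median was below 10 count equivalents, so these entered the test through their chow level. Promoters were found for 17 of the 19 genes, and CCAAT was present in 14 of these, including 8 of the 9 whose gene fell. It was also common in lists in which 0 genes fell, with 13 of 16 promoters of fatty acid synthesis genes and 12 of 14 of clock genes. It was present in 1 of 17 acute phase promoters and in 7 of 18 promoters of fatty acid oxidation genes, against 41.1% of all genes. The 250 bases before the start of Derl3, which helps draw misfolded proteins out of the endoplasmic reticulum, and Sdf2l1, a chaperone cofactor there, are shown with the same marking, as members that fell. Derl3 lies on the plus strand at chr10:75893148-75893397 and Sdf2l1 on the minus strand at chr16:17132384-17132633 of GRCm38.p6.
Derl3: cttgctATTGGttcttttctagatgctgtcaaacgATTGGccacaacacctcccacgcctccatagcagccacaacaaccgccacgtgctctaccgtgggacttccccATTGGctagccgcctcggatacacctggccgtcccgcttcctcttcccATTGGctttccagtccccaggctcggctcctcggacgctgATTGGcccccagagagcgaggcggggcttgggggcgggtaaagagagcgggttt
Sdf2l1: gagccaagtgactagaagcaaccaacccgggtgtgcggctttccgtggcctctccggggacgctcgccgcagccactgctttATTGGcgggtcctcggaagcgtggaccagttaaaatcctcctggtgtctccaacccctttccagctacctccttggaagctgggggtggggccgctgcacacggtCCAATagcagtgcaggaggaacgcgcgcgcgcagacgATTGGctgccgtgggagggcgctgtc
Derl3 has 5 boxes in this window, the nearest 54 bases before the start, and Sdf2l1 has 3, the nearest at 26 bases. As a description of letters this does not show binding.

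Derl3 stood at 20.7, 67.3 and 178.2 in chow and at 2.85, 8.67 and 34.8 with high fat, with overlap, and changed by -2.72 ± 0.50 (adjusted p = 0.00301). Sdf2l1 went from 144.997, 358 and 621 to 62.8, 120.1 and 295 and changed by -1.55 ± 0.35 (adjusted p = 0.0089). Hsp90b1, the chaperone GRP94, went from 8134, 12145 and 17587 to 5172, 7079 and 9512, a change of -0.78 ± 0.16 (adjusted p = 0.00531). In each of the 3 the high fat mice numbered 11125 to 11170 were lower by median. Asns, asparagine synthetase, which ATF4 switches on when amino acids run short, stood at 12.3, 54.8 and 181.8 in chow and 1.85, 7.73 and 22.9995 with high fat, and changed by -2.59 ± 0.48 (adjusted p = 0.00324). Hspa5, the master chaperone BiP, changed by -0.94 and did not pass (adjusted p = 0.0596), nor did Ddit3, the pro-death factor CHOP, at -0.51 (0.377).

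Of 20 glucose and insulin genes 4 rose and 0 fell, against 9.25% and 5.57% of all genes, with a median change of 0.33. Without chow replicate 1 or 6 or high fat replicate 4, 2 rose, and without high fat replicate 5, 6 or 8, 1 rose. With a term for the number series 0 passed by limma, with 6 higher and 1 lower at an unadjusted p under 0.05, and in the animals numbered 9367 to 9522 alone 0 passed, with 4 higher at that threshold. Pck1, which begins gluconeogenesis from oxaloacetate, went from 2867, 8747 and 15230.5 to 8365, 19536 and 28422 and changed by 1.27 ± 0.35 (adjusted p = 0.0241). Without high fat replicate 5, 6 or 8 its adjusted p was 0.0508, 0.0522 or 0.0518. Gys2, liver glycogen synthase, changed by 0.55 ± 0.14 (adjusted p = 0.0165). Grb14, an inhibitor of the insulin receptor, changed by 0.36 (adjusted p = 0.0313), and its call was lost without any 1 of chow replicates 1 and 6 or high fat replicates 4, 5, 6 and 8 (0.0545 to 0.0658). The call of Slc2a2, the glucose transporter GLUT2 (0.43, 0.0485), was lost without any 1 of chow replicates 1, 2, 3, 6 and 8 or high fat replicates 4 to 8 (0.0621 to 0.0986).

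Signal receivers of insulin did not pass. Insr, the insulin receptor, stood at 1363, 1494 and 1609.8 in chow and 1158, 1323 and 1539 with high fat and changed by -0.18 ± 0.07 (adjusted p = 0.086). Irs2, its docking protein, was at -0.36 (adjusted p = 0.531) and Igfbp1, which insulin lowers, at 0.33 (0.84), with a chow range of 92.2 to 8710.4. Lepr, the leptin receptor, went from 29.1, 62.7 and 219.4 to 80.5, 197.4 and 401 and changed by 1.41 ± 0.42 (adjusted p = 0.0317). Its high fat mice were at 80.5 to 164.5 and 230.3 to 401 in the 2 series, and the call was lost without any 1 of chow replicates 1, 6 and 8 or high fat replicates 1, 5, 6 and 8, at adjusted p of 0.0552 to 0.0672. Of 20 genes of amino acid breakdown and the urea cycle 1 rose, the proline dehydrogenase Prodh (0.36, adjusted p = 0.0386), a call lost without any 1 of chow replicates 1, 3, 4, 6 and 8 or high fat replicates 1, 2, 5, 6, 7 and 8, while 2 rose without chow replicate 2 or 5. Of 15 clock genes 0 passed by limma, 1 was lower at an unadjusted p under 0.05, and 1 passed without chow replicate 4. Of 12 cell division genes 2 were high enough to test and 0 passed by limma, with 0 at an unadjusted p under 0.05.

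Other genes with the largest changes belong to none of these lists. Krt23, a keratin that is scarce in healthy liver, stood at 0, 1.63 and 13.5 in chow and 8.36, 44.6 and 321 with high fat and rose by 4.51 ± 0.71 (adjusted p = 0.00114), with high fat mice at 8.36 to 58.8 and 26.8 to 321 in the 2 series. Ly6d, a membrane-anchored Ly6 protein, went from 0, 5.86 and 37.5 to 34.5, 215.1 and 352 and rose by 4.73 ± 0.69 (adjusted p = 0.000572). Themis, known from developing T cells, went from 0, 2.76 and 8.48 to 14.8, 50.6 and 106.5 with no overlap and rose by 3.78 ± 0.44 (adjusted p = 0.000201). Kbtbd11, a Kelch and BTB domain protein, went from 2.45, 8.02 and 20.3 to 19.96, 76.7 and 161.4 and rose by 3.16 ± 0.40 (adjusted p = 0.000284). Themis and Kbtbd11 also passed with the animals numbered 9367 to 9522 alone, both at an adjusted p of 0.0424. Krt23, Ly6d, Themis and Kbtbd11 each had a chow median below 10 count equivalents and so entered the test through their high fat level. All 13 lymphocyte and NK markers were too low to be tested, and their part in the Themis values was not tested.

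Among the 10 hepatocyte markers, 3 passed, against 14.8% of all genes, and the median change was -0.26, with Cyp2e1 higher (0.57) and Serpina1a (-0.50) and F2 (-0.33) lower. In bulk tissue, fewer cells of a type and less RNA per cell cannot be told apart. Beside the marker counts that follow, 9.25% of all genes were called as higher and 5.57% as lower. Of 13 macrophage markers 1 fell, the scavenger receptor Marco, which went from 204.3, 389 and 651 to 64.7, 115.5 and 347 (-1.43 ± 0.33, adjusted p = 0.00953), or 2 without chow replicate 7 or high fat replicate 1. Of 9 stellate cell markers 1 rose (Colec11, 0.48, adjusted p = 0.0367, lost without any 1 of chow replicates 1, 2, 4, 6 and 7 or high fat replicates 1, 5, 6 and 8), and of 3 biliary markers, with a median change of -0.62, 1 fell (Sox9, -1.18 ± 0.27, adjusted p = 0.00978). Of 10 endothelial markers 0 passed by limma, 2 were lower at an unadjusted p under 0.05, and 1 passed without chow replicate 4 or 7 or high fat replicate 6. With a term for the number series 3 endothelial markers were lower (Pecam1, Lyve1 and Cdh5). In the animals numbered 9367 to 9522 alone 0 markers of these cell types passed by limma. There 5 endothelial, 3 macrophage, 2 hepatocyte and 1 biliary marker were lower and 1 hepatocyte marker higher at an unadjusted p under 0.05, and without mouse 9522 Cdh5 passed as lower. Of 5 blood markers 0 passed by limma and 0 had an unadjusted p under 0.05, and 5 of 11 adipocyte and pancreas markers were at 0 in all 16 livers.

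Of 11 fibrosis genes 3 rose, all of them fibrillar collagens, while the median change of the list was 0.098, or -0.12 in the animals numbered 9367 to 9522. Col1a1 stood at 6.12, 16.4 and 27.4 in chow and 25.1, 45.2 and 99.2 with high fat and changed by 1.53 ± 0.32 (adjusted p = 0.00542). Col3a1 went from 60.6, 72.5 and 110.6 to 100.4, 147.9 and 309.8 and changed by 1.07 ± 0.21 (adjusted p = 0.00375), and Col1a2 changed by 0.72 ± 0.20 (adjusted p = 0.0256, lost without chow replicate 1 or high fat replicate 6 or 8, at 0.0551 to 0.0556). Levels were higher in the high fat mice numbered 11125 to 11170, at 51.6 to 99.2 for Col1a1 and 153.2 to 309.8 for Col3a1, than in the others, at 25.1 to 38.8 and 100.4 to 142.6. With the animals numbered 9367 to 9522 alone 0 fibrosis genes passed by limma, with 2 higher and 1 lower at an unadjusted p under 0.05, and the change was 0.95 for Col1a1 (adjusted p = 0.204). The mean of the endothelial list moved with the series as well, at 0.14 to 0.23 in the mice numbered 11125 to 11170 and -0.58 to -0.12 in the other high fat mice, and its part in the collagen values was not tested.

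How far the response was that of NZO was asked by testing the NZO change against the mean change of the other 7 founder strains, in a limma fit of all 128 males. Of 13540 genes, 1312 (9.69%) differed, 732 with a higher change in NZO (5.41%) and 580 with a lower one (4.28%). With total scaling 88.5% of these calls were higher, against 55.8% here. Of the 1732 NZO calls, 808 were also called in this comparison in the same direction. With only the NZO mice numbered 9367 to 9522, a number of genes equal to 1.03% of the 13540 differed. Against the mean of the 4 other classical strains only, the share was 4.05%. Unlike the NZO list counts above, the list counts of this difference are given only for all 16 NZO mice against all 7 strains. How many list members would differ in those 2 settings is not given. Within single strains the same fit called 4.27% of the genes tested in WSB, 2.95% in PWK, 1.68% in 129S1, 1.48% in NOD, 1.41% in B6, 0.556% in AJ and 0.240% in CAST. In the NZO animals numbered 9367 to 9522 alone, which are fewer mice, it called 0.705%. Counts of calls are not a test between strains.

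**Figure D4:**
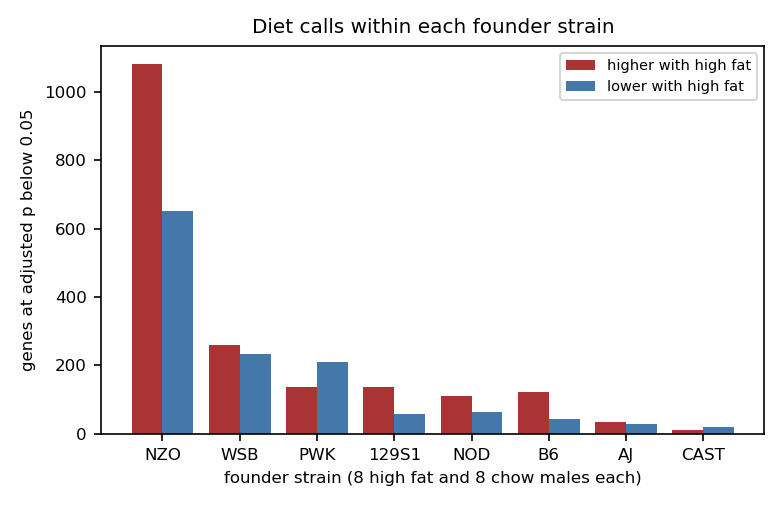
Number of genes at a limma adjusted p below 0.05 that were higher or lower with high fat within each founder strain, 8 high fat and 8 chow males each. NZO has 1081 higher and 651 lower, more than any other strain, and CAST has the fewest, 28 in all.

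Cholesterol synthesis did not set NZO apart. Of the 24 genes, 0 differed in either direction by limma, 1 had a lower change in NZO at an unadjusted p under 0.05, and their median change was -0.91 in the other strains against -1.06 in NZO. Sqle changed by -2.97 in the others, and the difference was -0.72 ± 0.72 (adjusted p = 0.559). Fatty acid oxidation did differ with all NZO mice: 16 of 25 genes had a higher change in NZO and 0 a lower one, with a median change of 0.21 in the others. Cyp4a14 changed by 0.83 in the others, a difference of 4.60 ± 1.02 (adjusted p = 0.00161), and Acaa1b by 0.86, a difference of 1.63 ± 0.37 (adjusted p = 0.00216). The adjusted p for Cyp4a14 was 0.137 with only the NZO mice numbered 9367 to 9522. Vnn1 rose in the others too, by 1.51, and its difference did not pass (adjusted p = 0.11).

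Mogat1 (2.47 ± 0.42, adjusted p = 2.25e-05), Fads2 (1.56 ± 0.24, 2.95e-06) and Apoa4 (1.42 ± 0.33, 0.00295) also had a higher change in NZO. Of the 19 acute phase genes, 14 had a lower change in NZO and 0 a higher one, among them Lcn2 (-3.07 ± 1.00, adjusted p = 0.0353) and Fgb (-1.01 ± 0.24, 0.00378). In the unfolded protein list 9 had a lower change and 1 a higher one (Trib3), with Derl3 at -2.62 ± 0.69 (adjusted p = 0.00853). Pck1 changed by -0.29 in the others, and its difference was 1.56 ± 0.27 (adjusted p = 4.38e-05). With only the NZO mice numbered 9367 to 9522, the differences of Lcn2, Fgb, Derl3 and Pck1 did not pass (adjusted p = 0.665, 0.544, 0.169 and 0.0582).

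The smallest p-values of the difference were those of sex-biased genes and a few others. Moxd1 had a difference of -6.06 ± 0.81 (adjusted p = 1.68e-07), Cyp2a4 one of 5.19 ± 0.70 (1.68e-07), Cyp2b9 one of 5.30 ± 0.78 (9.75e-07) and Serpina1e one of -3.90 ± 0.55 (3.59e-07). In the other strains these genes changed by 0.36, -0.34, 0.84 and -0.23 on average. The mean hides strains that moved: in B6, Cyp2b9 changed by 4.09, which did not pass within that strain (adjusted p = 0.0638), and in AJ, Cyp2a4 changed by -2.82 and passed (adjusted p = 0.0381). Krt23 (4.34 ± 0.60, adjusted p = 1.99e-07), Kbtbd11 (3.04 ± 0.42, 2.02e-07), A1bg (3.52 ± 0.55, 3.52e-06), Fads3 (2.14 ± 0.32, 1.77e-06) and Susd4 (-2.20 ± 0.34, 2.85e-06) differed as well. Each of these 9 genes kept its call with only the NZO mice numbered 9367 to 9522.

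**Figure D5:**
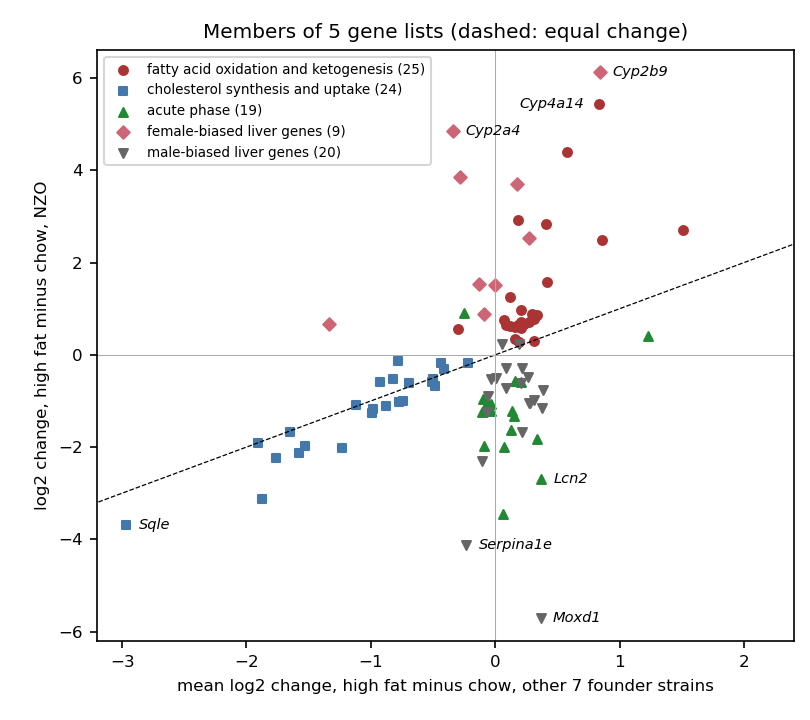
Change with high fat in NZO against the mean change in the other 7 founder strains, both on the log2 scale, for the tested members of 5 gene lists, with a dashed line where both are equal. Cholesterol synthesis genes lie along the line, fatty acid oxidation and female-biased genes lie above it, and most acute phase and male-biased genes lie below it.

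Across genes, the NZO changes were most like those of 129S1 (Pearson r = 0.51 over 11257 genes) and then of B6 (0.41 over 11336) and NOD (0.39 over 11209), and least like those of PWK (-0.16 over 11116). Of the NZO calls also tested in the other strain, 86.2% changed in the same direction in 129S1, 85.2% in B6 and 79.3% in NOD. The share was 71.7% in WSB, 60.35% in AJ, 55.9% in CAST and 47.2% in PWK. Over all genes it ranged from 43.7% (PWK) to 67.4% (129S1). Genes are not independent replicates, and each strain's changes carry their own error, so these values are a description of 8 sets of mice.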

How the data were processed

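Liver mRNA of 128 founder males, among them 16 NZO, was sequenced as single-end reads. Per the submitters' processing notes, CASAVA 1.8.0, Bowtie 0.12.8 and RSEM 1.2.1 were used, on NCBIM37. The values deposited by the authors are a normalised signal with an upper quartile of 1 in each library. Times 1 constant they are called count equivalents, and since 81.7% to 84.1% of low values in NZO were whole reads within a tolerance of 0.1, they were not treated as counts. The change was fitted with limma 3.58.1 in R 4.3.3, with an intensity trend, on log2(count equivalents + 1), for genes with 10 or more in at least 8 of 16 libraries. In subsets the number of libraries was that of the smaller group, a choice made after first values were seen. The difference from the other strains was a contrast in a fit of 16 groups. The code was tested on simulated data.

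Symbols came from GENCODE M21, which held 22760 of 24965 identifiers, and promoters from RefSeq. The members and gene lists were chosen with earlier results of these data known. Named genes are the 12 largest increases and decreases past the threshold with a mean of 50 or more in 1 group, the 8 smallest p of the difference that also passed in NZO, up to 4 members of each list by p, and Insr, Irs2, Igfbp1 and Lepr. Not all are described, some genes are not reported here, and other list members are given with their change only. Replicate numbers follow accession order. Same-lane mice of the 2 diets had correlations of -0.249 to 0.269, so lanes did not pair them. The plan named another test for whole counts, which was not needed. Alternatives covered the scaling, the filter, the pseudocount, the spread, the lane, the number series and each mouse left out.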

Additional observations from a re-analysis of the deposited data

Results flagged for a closer look

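Among the named genes reported here, 7 had a mouse far from the other 7 of its group by Dixon's test, which chance gives in about 1 of 20 groups. High fat replicate 4 held the lowest Cyp2b9 (12.5 count equivalents), the highest Moxd1 (317) and the lowest Apoc2 (1441). High fat replicate 5 held the lowest Oas1a (18.3), an interferon-induced gene. Chow replicate 6 held the lowest Abcg5 (171.01), high fat replicate 3 the lowest Nqo1 (23.2) and high fat replicate 7 the lowest Serpina1a (22619).

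The log2 change with high fat differed between NZO and the mean of the other 7 strains, by limma, in the 18 genes whose values follow and in others described above, among them Ly6d, Acot3 and Cyp4a10. Among sex-biased genes the differences were -6.06 for Moxd1, 5.19 for Cyp2a4, 5.30 for Cyp2b9, -3.90 for Serpina1e, -2.20 for Susd4 and 3.52 for A1bg. Among lipid genes they were 4.60 for Cyp4a14, 1.63 for Acaa1b, 2.47 for Mogat1, 1.56 for Fads2, 2.14 for Fads3 and 1.42 for Apoa4. The rest were Krt23 at 4.34, Kbtbd11 at 3.04, Lcn2 at -3.07, Fgb at -1.01, Derl3 at -2.62 and Pck1 at 1.56. NZO mice were 20 weeks old and the others 26, so strain and age cannot be told apart.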

How the results depend on the processing

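Calls are given as a share of the 11685 genes tested in NZO and the 13540 tested for the difference, whatever the setting. In NZO 14.8% were called (9.25% higher, 5.57% lower). The share was 7.78% (5.04% and 2.74%) with the number series as a term, 0.719% (0.599% and 0.12%) with only animals 9367 to 9522, 2.48% (1.9% and 0.582%) with only 9367 to 9507 and 1.75% (1.39% and 0.368%) against a fold of 1.2. The lower calls were 2.89% with total scaling, 8.58% with the spread shared over 16 groups and 8.57% with only the high fat mice numbered 11125 to 11170. Leaving out 1 mouse gave 10.2% to 17.0% called, 6.62% to 10.6% higher and 3.53% to 7.01% lower, with 3.66% lower without chow replicate 1 or 6, 3.61% without high fat replicate 6 and 3.53% without high fat replicate 8. With the lane as a replicate block 12.5% were called (7.97% and 4.50%). For the difference from the other strains, 9.69% (5.41% and 4.28%) became 4.05% (2.39% and 1.67%) against the 4 other classical strains only and 1.03% (0.716% and 0.31%) with NZO animals 9367 to 9522. Higher and lower differences were 12.2% and 1.59% with total scaling, and higher ones 8.29% with array weights. The cause of these moves was not tested, beside fewer samples in subsets and fewer strains. No result changed direction. Of 72 named calls, 12 held in every setting, 12 with only animals 9367 to 9522, 28 of 71 with only 9367 to 9507, 55 with the series term and 61 to 72 without 1 mouse. The subset of 9367 to 9507, only high fat 11125 to 11170, and the subset of the difference were chosen after seeing the data. 8 mice per diet and the read totals limit low genes.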
